A study of Mus musculus with 12 samples.

Results

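A group of 10 genes of endoplasmic reticulum (ER)-associated degradation, the route by which misfolded proteins of the ER are sent to the proteasome, were followed by name: Syvn1, Sel1l, Derl1, Derl2, Derl3, Os9, Edem1, Edem2, Edem3 and Herpud1. These 10 genes were found among 55416 in the deposited count tables, and all 10 passed the filter on low counts, which kept 17702 genes. The cells were mouse embryonic stem cells of the established line E14Tg2a.4, grown in serum with leukemia inhibitory factor. All of them carried a tagged large-subunit ribosomal protein, Rpl31-FLAG-TEV-AviTag, and whether the tagged cells descend from 1 clone is not given in the sources used here. ALIBi, a proximity-labelling system, was directed to the ER, and the ribosomes it biotinylated were purified and their poly-A RNA sequenced (ER-bound RNA). Poly-A RNA of the lysates that entered the purification was sequenced as whole-cell RNA. Before labelling, cells were given a scramble siRNA or one that targets Lsg1, a GTPase of late 60S ribosomal subunit maturation. The 12 libraries thus formed 4 groups of 3 biological replicates: ER-bound scramble, whole-cell scramble, ER-bound Lsg1 and whole-cell Lsg1. Adjusted p-values measure the spread between these samples, all of 1 cell line.

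In this pathway, lumenal glycoproteins that fail to fold have mannose residues removed by enzymes of the EDEM family. The lectin OS9 binds the trimmed glycans and hands the protein to SEL1L, which holds it at HRD1, the membrane ubiquitin ligase that Syvn1 encodes. Derlins help the protein cross the membrane, HERPUD1 is a stress-induced scaffold of the same complex, and the ATPase VCP pulls the ubiquitinated protein into the cytosol. Most of these factors are themselves membrane or lumenal proteins, made by ribosomes docked on the ER, whereas VCP is a soluble protein of the cytosol.

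Because a hydrophobic stretch near the start of a protein can bring its ribosome to the ER, the coding sequences were read for the first window of 19 residues with a mean Kyte-Doolittle hydropathy of at least 1.6. The sequences below show where that stretch lies in 6 members that differ in its position, and the most hydrophobic window of the 1 member without it. They are coding sequences of GENCODE main transcripts on GRCm38, 5′ to 3′ from the start codon (Herpud1 excepted), and capitals mark the stretch.
Syvn1: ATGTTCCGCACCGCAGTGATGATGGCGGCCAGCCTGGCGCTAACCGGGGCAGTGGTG
Edem1: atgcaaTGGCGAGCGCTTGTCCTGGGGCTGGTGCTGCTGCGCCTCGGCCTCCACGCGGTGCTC
Edem2: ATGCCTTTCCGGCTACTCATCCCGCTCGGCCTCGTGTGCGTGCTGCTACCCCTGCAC
Derl1: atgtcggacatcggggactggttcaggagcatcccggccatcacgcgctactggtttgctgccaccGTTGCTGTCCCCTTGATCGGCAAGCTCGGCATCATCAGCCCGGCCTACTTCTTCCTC
Derl2: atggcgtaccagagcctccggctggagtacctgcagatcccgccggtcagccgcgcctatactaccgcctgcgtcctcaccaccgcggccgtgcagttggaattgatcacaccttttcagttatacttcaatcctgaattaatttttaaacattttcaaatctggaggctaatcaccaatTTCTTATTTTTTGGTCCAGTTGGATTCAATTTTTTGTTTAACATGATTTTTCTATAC
Derl3: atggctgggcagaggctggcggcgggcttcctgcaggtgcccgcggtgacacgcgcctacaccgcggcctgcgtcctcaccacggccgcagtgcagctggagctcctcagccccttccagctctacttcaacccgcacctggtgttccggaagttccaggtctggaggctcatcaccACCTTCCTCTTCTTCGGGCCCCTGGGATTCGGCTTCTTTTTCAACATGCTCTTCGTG
Herpud1: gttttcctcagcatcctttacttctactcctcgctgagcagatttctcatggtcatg

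The stretch began at residue 1 in Syvn1, Sel1l, Os9 and Edem2, at residue 3 in Edem1, at residue 18 in Edem3, at residue 23 in Derl1, at residue 60 in Derl3 and at residue 61 in Derl2. In Syvn1 it lies in exon 2 of 16 (chr19:6047934-6047990, plus strand), in Edem1 in exon 1 of 12 (chr6:108828746-108828802, plus strand) and in Edem2 in exon 1 of 11 (chr2:155729281-155729337, minus strand). In Derl1 it lies in exon 1 of 8 (chr15:57892173-57892229, minus strand). In Derl2 (chr11:71014640-71015779, minus strand) and Derl3 (chr10:75893788-75893967, plus strand) it runs over the junction of exons 3 and 4 of 7. Thus the stretch began at residue 1 to 60 in 8 of 10 members, and Derl2 missed that limit by 1 residue. With a threshold of 1.9 in place of 1.6, the count was 5. Herpud1 had no such stretch: its most hydrophobic window, printed above in lower case, is at residues 276 to 294 of 391, in exon 6 of 8 (chr8:94392445-94392501, plus strand), with a mean hydropathy of 1.58. The 2 most alike members, Derl2 and Derl3, share 74.1% of aligned residues, whereas Derl1 shares 39.1% with Derl2 and 32.7% with Derl3. The 3 EDEM proteins are between 43.7% and 45.9% identical.

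The libraries held 38092178 to 56522114 reads assigned to genes. Members were counted with 162 reads (Derl3, whole-cell scramble replicate 1) to 4411 reads (Derl1, ER-bound Lsg1 replicate 1), so counting error is widest for Derl3. Lsg1 stood at 83.5 to 114 CPM (TMM-scaled counts relative to library size) in whole-cell RNA with its siRNA against 136 to 149 with scramble. In ER-bound RNA it stood at 35.4 to 52.5 CPM against 142.5 to 151, and groups did not overlap in either fraction. Replicate 3 of ER-bound scramble and replicate 3 of whole-cell Lsg1 stood apart from the other 10 libraries in 1 gene without a name in the annotation, ENSMUSG00000119584, at 18469 and 15604 CPM against 1115 to 4143. Both also had the most reads outside any feature within their fraction. These were 5.11% against 2.65% to 3.10% in the other ER-bound libraries, and 5.26% against 4.10% to 4.40% in the other whole-cell libraries. All 8 embryonic stem cell markers were detected and together gave 7373 to 7913 CPM in ER-bound and 5952 to 6160 CPM in whole-cell RNA. All 8 feeder fibroblast markers together reached 45.4 to 55.8 CPM in ER-bound and 24.9 to 27.9 CPM in whole-cell RNA, of which Thy1 alone gave up to 48.7 CPM, Col1a1 up to 6.54 CPM and Col1a2 up to 0.94 CPM, and of the others Lum was at 0 and Postn, Dcn and S100a4 at 0.071 CPM at most. All 7 primitive endoderm markers together gave 10.8 to 12.2 CPM. Mitochondrially encoded mRNAs, which ER ribosomes do not translate, summed to 238 to 283 CPM in ER-bound and 18963 to 20655 CPM in whole-cell RNA.

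All 10 members were expressed in whole-cell RNA of the scramble cells, and their levels are compared here per kilobase of main transcript. Derl1 was the most abundant at 15.0 ± 0.23 CPM per kilobase (SD, n = 3), followed by Herpud1 at 13.8 ± 0.40 and Edem2 at 12.1 ± 0.41. Syvn1, the ligase, followed at 7.90 ± 0.15, then Edem1 at 7.33 ± 0.24 and Derl2 at 7.23 ± 0.28. The lowest were Edem3 at 5.86 ± 0.18, Sel1l at 5.29 ± 0.40, Os9 at 4.92 ± 0.10 and Derl3 at 3.29 ± 0.11 CPM per kilobase. Neighbours in this order whose replicates overlapped were Edem1 and Derl2, Edem3 and Sel1l, and Sel1l and Os9. In ER-bound RNA of the same cells Derl1 again led at 25.9 ± 1.14 CPM per kilobase, with Edem2 at 21.3 ± 0.95 now above Herpud1 at 17.1 ± 1.05, and Derl3 was again lowest at 6.48 ± 0.33.

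Whether ER-labelled ribosomes carried more of these mRNAs than the whole cell was asked first in scramble cells. All 10 members were higher in ER-bound RNA, with log2 folds from 0.15 (Edem1) to 0.98 (Derl3) and a median of 0.57. In each of them all 3 ER-bound libraries lay above all 3 whole-cell libraries, as in 32.5% of all tested genes. Of all 17702 genes tested, 58.9% differed and 29.8% were higher, with a median of 0.03. Among those genes Derl3 stood at the 95.5th percentile of log2 folds, Edem2 at the 92.3rd, Herpud1 at the 73.2nd and Edem1 at the 61st. These and all later adjusted p-values come from the quasi-likelihood F-test of edgeR, adjusted by Benjamini-Hochberg over all 17702 genes, at a threshold of 0.05. Scaling by library totals in place of TMM left all 10 members higher, with Edem1 at 0.23, and raised the share of higher genes among all called from 50.7% to 60.8%. No library held the RNA of all ribosomes, so translation as such and translation at the ER cannot be told apart. For the siRNA comparisons further on, fewer cells carrying an mRNA and less of it per cell cannot be told apart in bulk RNA. In the comparison of fractions, both came from the same lysates and thus from the same cells. The feeder and stem cell marker sums were still higher in ER-bound RNA, as given above, but single markers were not all higher. Of 4 feeder markers tested, Thy1 (0.99) and Col1a1 (0.49) were called higher, and the other 2 had negative log2 folds and did not pass. Of 8 stem cell markers 6 were called higher and 2 lower. The part of these markers in the result was not tested.

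**Figure D1:**
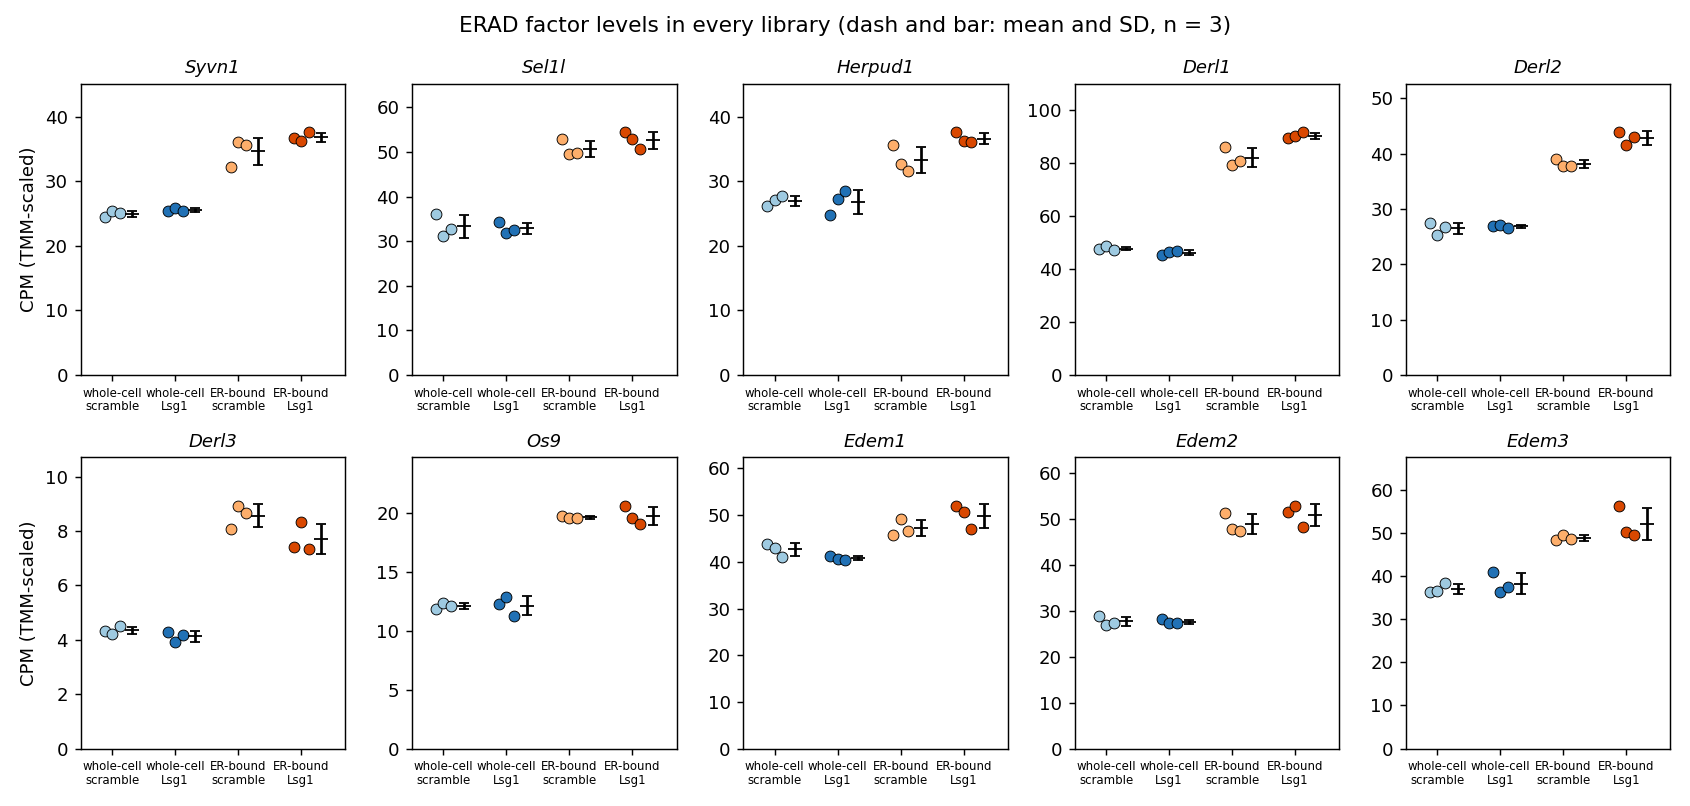
Level of each ERAD factor in every library, in TMM-scaled CPM on linear axes from 0, for whole-cell and ER-bound RNA with scramble or Lsg1 siRNA; points are replicates, and the dash and bar give mean and SD (n = 3). In all 10 panels the ER-bound points lie above the whole-cell points of the same siRNA, and with scramble siRNA they lie most widely apart, as a ratio, for Derl3 and least for Edem1.

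All 3 members of the ligase complex were higher on ER-labelled ribosomes. Syvn1 (ENSMUSG00000024807, chr19:6046576-6053712, plus strand, GRCm38) stood at 32.3, 36.0 and 35.6 CPM in ER-bound and 24.5, 25.4 and 25.0 CPM in whole-cell scramble RNA. The log2 fold was 0.47 (SE 0.04, adjusted p = 2.75e-08). The gene overlaps Mrpl49 on the opposite strand by 91 bases and the microRNA gene Mir6988, and the strand setting of the counting is not given, so reads there cannot be assigned with certainty. Sel1l (chr12:91806043-91849157, minus strand), the adaptor that holds clients at the ligase, stood at 52.8, 49.5 and 49.8 CPM against 36.2, 31.2 and 32.7 CPM. Its log2 fold was 0.61 (SE 0.05, adjusted p = 5.91e-09), and no library of one fraction reached the other. Herpud1 (chr8:94386438-94395377, plus strand), the scaffold, stood at 35.6, 32.7 and 31.6 CPM against 26.1, 27.1 and 27.7 CPM, a log2 fold of 0.30 (SE 0.05, adjusted p = 5.46e-05). That call was lost with an offset for trends in GC content and transcript length, which gave a log2 fold of 0.06 (adjusted p = 0.299). An antisense gene, Gm15890, overlaps Herpud1 by 535 bases.

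The derlins, multispanning membrane proteins, included the largest difference of the 10. Derl1 (chr15:57869502-57892448, minus strand) stood at 86.2, 79.3 and 80.7 CPM in ER-bound and 47.5, 48.6 and 47.2 CPM in whole-cell scramble RNA, a log2 fold of 0.78 (SE 0.04, adjusted p = 3.19e-12). Derl2 (chr11:71007164-71019841, minus strand) stood at 39.0, 37.8 and 37.7 CPM against 27.4, 25.4 and 26.7 CPM, a log2 fold of 0.53 (SE 0.04, adjusted p = 1.32e-09). Derl3 (chr10:75893413-75895941, plus strand), the least abundant derlin per length, stood at 8.09, 8.92 and 8.68 CPM against 4.33, 4.21 and 4.49 CPM. Its log2 fold was 0.98 (SE 0.08, adjusted p = 2.74e-09), a 1.97-fold higher level, and the groups were far apart for all 3 derlins. Derl2 and Derl3, whose stretches begin at residues 61 and 60, thus had log2 folds of 0.53 and 0.98, and with the GC and length offset these were 0.63 and 0.67. The longest transcript, whose GC content the offset used, is 42.9% GC in Derl2 and 57.3% in Derl3. The part of the coding sequence printed above is 44.3% GC in Derl2 and 64.1% in Derl3. Derl2 overlaps Mis12 on the opposite strand by 231 bases.

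Of the glycan-handling factors, Edem2 and Os9 were well above the whole cell and Edem1 only slightly. Os9 (chr10:127095650-127121131, minus strand), the lectin, stood at 19.7, 19.6 and 19.5 CPM in ER-bound and 11.8, 12.3 and 12.1 CPM in whole-cell scramble RNA, a 1.62-fold difference (SE of the log2 fold 0.05, adjusted p = 2.42e-09). Edem2 (chr2:155701677-155729475, minus strand), which starts mannose trimming, stood at 51.3, 47.7 and 47.4 CPM against 28.8, 27.0 and 27.3 CPM, a log2 fold of 0.82 (SE 0.04, adjusted p = 2.04e-11). Both had fractions far apart. Edem3 (chr1:151755371-151822051, plus strand), which trims further, stood at 48.3, 49.6 and 48.7 CPM against 36.3, 36.5 and 38.3 CPM, a log2 fold of 0.40 (SE 0.05, adjusted p = 1.91e-06). Edem1 (chr6:108828641-108859356, plus strand) stood at 45.8, 49.2 and 46.6 CPM against 43.8, 43.0 and 41.1 CPM, a log2 fold of 0.15 (SE 0.04, adjusted p = 0.00565). Its fractions came closest of all members, and the call was lost without ER-bound scramble replicate 2 (0.10, adjusted p = 0.0631) or whole-cell scramble replicate 3 (0.11, adjusted p = 0.0519). With the GC and length offset the log2 folds of Edem1 and Edem3 were 0.42 and 0.70, and Sel1l then had the highest of the 10 at 0.90. Edem1, Edem3 and Sel1l have the longest main transcripts, with 5817, 6327 and 6300 bases. The order of the members depended on the GC and length offset, whereas 9 of 10 were called higher with it. Over all genes 57.9% were called with the offset, 43.9% of these were higher, and the median log2 fold was -0.04. GC content and length were corrected together, and the part of each was not tested.

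**Figure D2:**
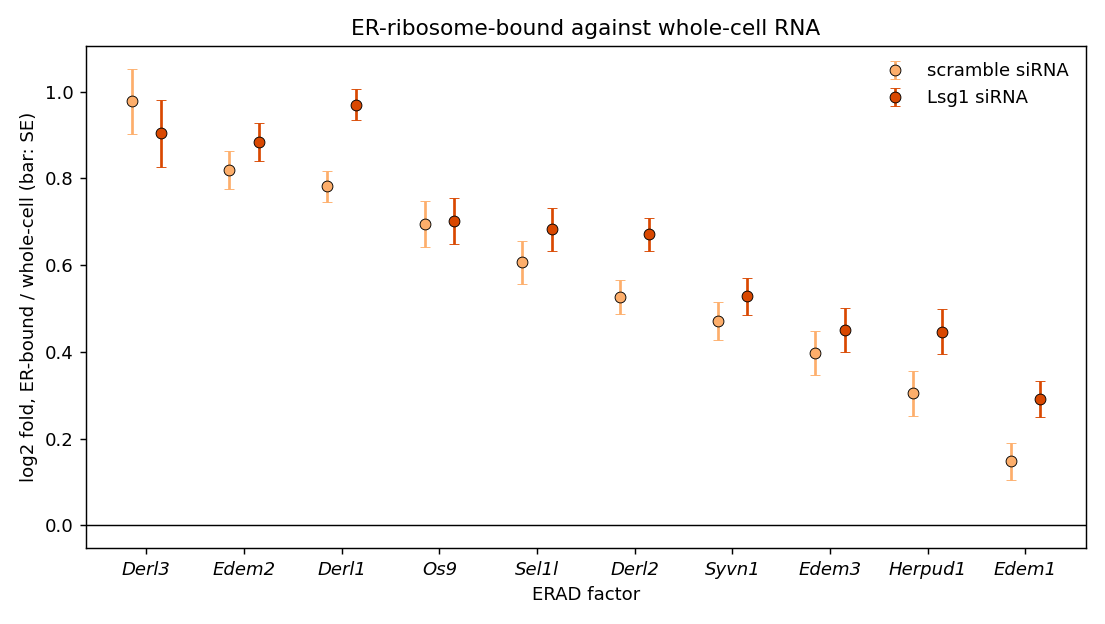
Log2 fold of ER-bound over whole-cell RNA for each ERAD factor, with scramble siRNA (light) and Lsg1 siRNA (dark); bars are the SE of the edgeR fit. Every point lies above 0, from 0.15 for Edem1 to 0.98 for Derl3 with scramble siRNA.

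Over the proteome, genes whose protein had a stretch beginning at residue 1 to 60 were higher in ER-bound RNA in 68.75% of 2598 tested genes, with a median log2 fold of 0.54. Genes with a later stretch were higher in 35.1% of 2541, with a median of 0.05, and genes with none in 23.94% of 9477, with a median of -0.05. The 8 members with an early stretch had a median of 0.65, and the 1 without any, Herpud1, stood at 0.30. Edem1, with the stretch from residue 3, had the lowest value of the 10, so in the main fit the order of the members did not follow the position of the stretch. With the GC and length offset Herpud1 was instead the lowest, at 0.06. Syvn1, with the stretch from residue 1, then stood at 0.41 and Edem1 at 0.42.

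**Figure D3:**
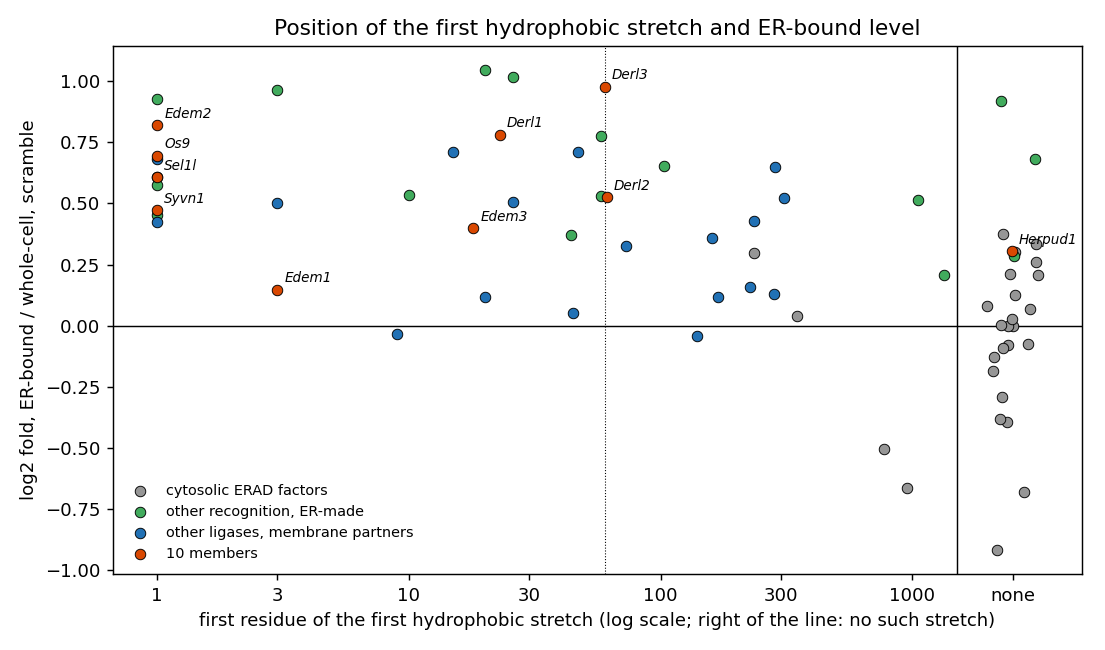
Log2 fold of ER-bound over whole-cell RNA with scramble siRNA against the first residue of the first hydrophobic stretch (log axis; genes without one at the right) for the 10 members, other ligases, other ER-made factors and cytosolic factors. Members with a stretch from residue 1 to 61 spread from 0.15 to 0.98, and 23 of 27 cytosolic factors have none.

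Other genes of the pathway were read from 4 lists. Of 18 other ligases and membrane partners, 13 were higher, none was lower and 5 did not pass, with a median log2 fold of 0.39. None was lower at an unadjusted p under 0.05, or by DESeq2 or limma-voom, either. Ubac2 (0.71, SE 0.04) and Aup1 (0.71, SE 0.05), which join HRD1 and other ligases at the membrane, and Trim13 (0.52, SE 0.04), a membrane ligase, had the smallest p. The membrane ligases Rnf145 and March6 did not pass, with log2 folds of -0.04 each. Of 17 other recognition and ER-made factors all 17 were higher, with a median of 0.61, among them the selenoprotein Selenok (1.05, SE 0.05), the lumenal ATPase Tor1a (0.96, SE 0.04) and Ubxn4 (0.68, SE 0.03), which recruits VCP to the ER membrane. Erlec1, Ubxn4 and Faf2 were higher although no stretch was found in them, which does not show that they lack a shorter signal.

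The cytosolic list of 27 genes differed in sign from gene to gene. Of these, 8 were higher, 10 were lower and 9 did not pass, with a median of -0.00, and Vcp itself did not pass at -0.00. Bag6, a chaperone for membrane proteins set free in the cytosol, was lower by a log2 fold of -0.50 (SE 0.04), as were the ubiquitin chain elongation factor Ube4b (-0.68, SE 0.06) and Ubqln4 (-0.29, SE 0.03), a shuttle to the proteasome. Ubxn1 (0.38, SE 0.03), the Bag6 partner Sgta (0.30, SE 0.03) and the VCP cofactor Ufd1 (0.34, SE 0.04) were higher. Of 23 unfolded protein response genes 17 were higher, 3 lower and 3 did not pass, with a median of 0.42. Those with the smallest p, Creld2 at 1.18 (SE 0.04), Dnajb11 at 1.09 (SE 0.03) and Calr at 0.99 (SE 0.03), encode lumenal chaperones or their helpers. The lower 3 were the stress sensor Atf6 (-0.28, SE 0.03), the glutathione-degrading Chac1 (-0.24, SE 0.04) and the pseudokinase Trib3 (-0.09, SE 0.03). For these lists too, 29.8% of all tested genes were higher and 29.1% lower.

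**Figure D4:**
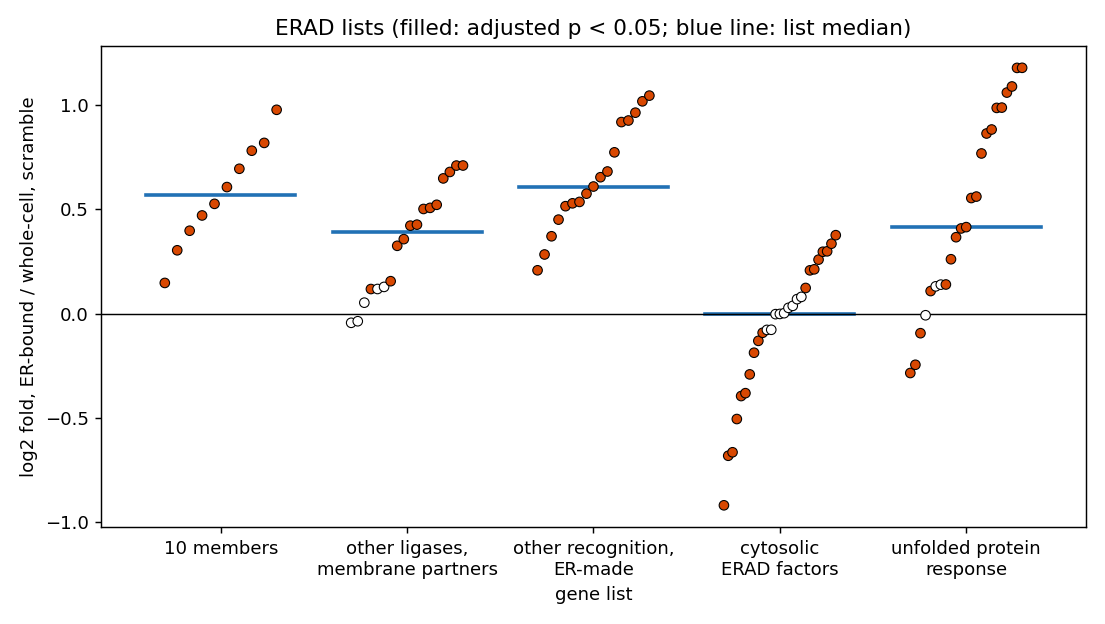
Log2 fold of ER-bound over whole-cell RNA with scramble siRNA for the genes of each list, ordered by value; filled points passed the test and the line is the list median. The members and the other ER-made factors lie wholly above 0, whereas the cytosolic factors spread on both sides of 0 around a median of -0.00.

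With Lsg1 siRNA all 10 members were again higher in ER-bound than in whole-cell RNA, against 60.3% of all genes differing and 30.6% being higher. The folds set other libraries against each other than the scramble comparison did, but both came from the same fit with a shared estimate of the spread. Their median was 0.68, and fractions did not overlap in any member (adjusted p at most 8.51e-06). With library totals 61.7% of all called genes were higher, against 50.7% with TMM. The highest log2 folds were those of Derl1 (0.97, SE 0.04), Derl3 (0.90, SE 0.08) and Edem2 (0.88, SE 0.04). The lowest were those of Edem1 (0.29, SE 0.04), Herpud1 (0.45, SE 0.05) and Edem3 (0.45, SE 0.05). Sel1l stood at 54.4, 52.9 and 50.6 CPM in ER-bound against 34.2, 31.8 and 32.6 CPM in whole-cell RNA, and Os9 at 19.7 ± 0.79 CPM against 12.1 ± 0.82 CPM (SD, n = 3). Derl3 stood at 7.43, 8.34 and 7.34 CPM against 4.28, 3.91 and 4.17 CPM. In each of these the lowest ER-bound library was well above the highest whole-cell library. Among the EDEM genes, Edem2 stood at 51.5, 52.8 and 48.3 CPM against 28.1, 27.2 and 27.4 CPM, and Edem3 at 56.2, 50.3 and 49.4 CPM against 40.8, 36.2 and 37.5 CPM. Edem1 stood at 52.0, 50.6 and 46.9 CPM against 41.2, 40.7 and 40.3 CPM, so that here too its fractions lay closest as a ratio of means. Herpud1 stayed called with the GC and length offset, at 0.19 (adjusted p = 0.00148). Within single lysates the Derl1 log2 ratio lay between 0.71 and 0.86 in the 3 scramble lysates and between 0.96 and 0.99 in the 3 Lsg1 lysates. The Derl2 ratio lay between 0.50 and 0.57 and between 0.61 and 0.71, and the Edem1 ratio between 0.065 and 0.19 and between 0.22 and 0.34. These 3 of 10 members had Lsg1 lysates wholly above scramble lysates and none wholly below, against 8.08% and 6.53% of all tested genes, a difference that the interaction tests further on. Of the lists, 12 of 18 ligases and partners, 17 of 17 other ER-made factors and 18 of 23 unfolded protein response genes were higher, and of the cytosolic list 9 were higher and 11 lower. Ubac2 (0.78), Aup1 (0.88), Tor1a (1.04), Selenos (1.18), Creld2 (1.26) and Dnajb11 (1.15) had the smallest p in their lists, and in the cytosolic list Ubxn1 (0.39) and Bag6 (-0.49). Vcp, which did not pass in scramble cells, was among the 11 lower here, at -0.10 (SE 0.03, adjusted p = 0.00573).

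Because several of these genes answer to ER stress, their promoters were read for stress elements in RefSeq windows (GRCm38.p6) from 250 bases before to 50 after the start site. Of the 10 members 9 had an entry, and Derl1 was not matched. The 3 members with a match are shown, capitals marking the fixed letters.
Herpud1: ATTGGgCCACG
Derl3: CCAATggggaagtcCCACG
Syvn1: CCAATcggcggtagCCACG
The Herpud1 match (ERSE-II, ATTGG and CCACG with 1 base between them) is at chr8:94386377-94386387, plus strand. The Syvn1 match (ERSE, CCAAT and CCACG with 9 bases between them) is at chr19:6046532-6046550, plus strand, and the Derl3 match (ERSE) at chr10:75893242-75893260, read on the minus strand. ERSE and ERSE-II share their last 5 letters. Both strands of 32851 promoters were searched: 0.119% held ERSE and 0.0365% ERSE-II. The XBP1-type core TGACGTGG, in 0.676% of promoters, and TGACGTCA, which shares its first 6 letters and was in 1.79%, were in none of the members' windows. Such a match describes letters and not binding.

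Levels of the members in whole-cell RNA did not pass the test for a difference between Lsg1 and scramble siRNA. None of the 10 was called, none had an unadjusted p under 0.05 (the smallest was 0.142), and DESeq2 and limma-voom also called 0. Over all genes edgeR called 0% as well, with 731 at an unadjusted p under 0.05, and DESeq2 called 5 and limma-voom 0. The edgeR test thus did not call Lsg1 itself, the siRNA target, although its whole-cell groups did not overlap. A member that did not pass is therefore not shown to be unchanged. Log2 folds ran from -0.08 (Derl3, SE 0.08) to 0.04 (Edem3, SE 0.05), with a median of -0.01. Herpud1, with the ERSE-II letters, stood at 24.8, 27.3 and 28.5 CPM with Lsg1 siRNA against 26.1, 27.1 and 27.7 with scramble. Syvn1 stood at 25.3, 25.9 and 25.3 CPM against 24.5, 25.4 and 25.0. Derl1 was the 1 of 10 members with groups apart, as 5.22% of all genes were upward and 5.17% downward, at 45.2, 46.4 and 46.9 CPM with Lsg1 siRNA against 47.2 to 48.6, a log2 fold of -0.05 (SE 0.04). None of the 23 unfolded protein response genes was called, 1 had an unadjusted p under 0.05, and their median was -0.03. None of the ligase, other ER-made and cytosolic genes was called either, and 1 cytosolic gene had an unadjusted p under 0.05. DESeq2 and limma-voom called 0 genes of these 4 lists.

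On ER-labelled ribosomes 2 of 10 members were higher with Lsg1 siRNA than with scramble, Derl1 and Derl2, where 4.01% of all genes were called, 2.63% higher and 1.38% lower. Derl1 stood at 89.5, 90.1 and 91.8 CPM against 86.2, 79.3 and 80.7 CPM, a log2 fold of 0.14 (SE 0.03, adjusted p = 0.0292). Derl2 stood at 43.9, 41.5 and 43.0 CPM against 39.0, 37.8 and 37.7 CPM, a log2 fold of 0.17 (SE 0.04, adjusted p = 0.0146). In both, every Lsg1 library lay above every scramble library, and DESeq2 and limma-voom called 2 members as well. These calls did not hold in every fit: with only the 6 ER-bound libraries in the fit neither passed (Derl1 0.13, adjusted p = 0.142, Derl2 0.15, adjusted p = 0.073), and both also missed it without the 2 libraries that stand apart. Leaving out any 1 library but ER-bound scramble replicate 1 cost Derl1 its call (adjusted p up to 0.239), and 4 of 12 such fits cost Derl2 its call, those without ER-bound scramble replicate 2 or 3 or ER-bound Lsg1 replicate 1 or 3 (adjusted p up to 0.121).

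The remaining 8 members did not pass. Herpud1 stood at 37.6, 36.3 and 36.0 CPM against 35.6, 32.7 and 31.6 CPM, a log2 fold of 0.14 (SE 0.05, adjusted p = 0.144), and among the fits run passed only without ER-bound scramble replicate 1 (0.18, adjusted p = 0.0366). Syvn1 stood at 36.6, 36.2 and 37.6 CPM against 32.3, 36.0 and 35.6 CPM, with 0.09 (SE 0.04, adjusted p = 0.285). Both had groups apart. Derl3 was the 1 member with a negative value, at 7.43, 8.34 and 7.34 CPM against 8.09, 8.92 and 8.68 CPM, a log2 fold of -0.15 (SE 0.07, adjusted p = 0.255), and its groups overlapped. Edem1, Edem2, Edem3, Sel1l and Os9 had log2 folds between 0.01 and 0.09. The median of the 10 was 0.08, against 0.01 over all genes, and 4 of 10 had Lsg1 libraries wholly above scramble libraries, against 12.5% of all genes. The 10 summed to 430 to 450 CPM with Lsg1 siRNA against 406 to 419 with scramble. In the same comparison 7 of 8 embryonic stem cell markers had negative log2 folds, with a median of -0.06. Of these Nanog (-0.18, SE 0.04, adjusted p = 0.0298) and Tfcp2l1 (-0.20, SE 0.05, adjusted p = 0.0318) were lower, and the 8 summed to 7373 to 7882 CPM against 7409 to 7913. The part of this in the members' values was not tested.

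In the lists, the mannosidase Man1b1 (0.21, SE 0.04, adjusted p = 0.00311), Erlin1 (0.18, SE 0.04, adjusted p = 0.00723), a membrane scaffold, and Faf2, which recruits VCP, were the 3 of 17 other ER-made factors called higher. Faf2 is named because it completes a count of 3. All 17 had positive log2 folds, with a median of 0.12, with replicate number as a block 6 were called, and without ER-bound Lsg1 replicate 1 or 2 only 1 was. Of the 18 ligases and partners none was called, 6 had an unadjusted p under 0.05 (17.2% of all genes did), 2 were called by limma-voom, 0 by DESeq2 and 3 with the block. In the cytosolic list Sgta was higher (0.15, SE 0.03, adjusted p = 0.00964) and Ubqln2, a shuttle to the proteasome, lower (-0.16, SE 0.03, adjusted p = 0.00839). At an unadjusted p under 0.05, 6 of 27 cytosolic genes were higher and 4 lower, and 10 of 17 other ER-made factors were higher. The count of cytosolic genes called higher fell from 1 to 0 without ER-bound scramble replicate 2 or 3, without ER-bound Lsg1 replicate 2 or 3, and without the 2 libraries that stand apart. None of the 23 unfolded protein response genes was called, by DESeq2 or limma-voom either, 3 had an unadjusted p under 0.05, and their median was 0.01. Over all genes the block raised the count called from 710 to 1178, and fitting only the ER-bound libraries lowered it to 375. With the GC and length offset 53.1% of the called genes were higher, against 65.5%.

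**Figure D5:**
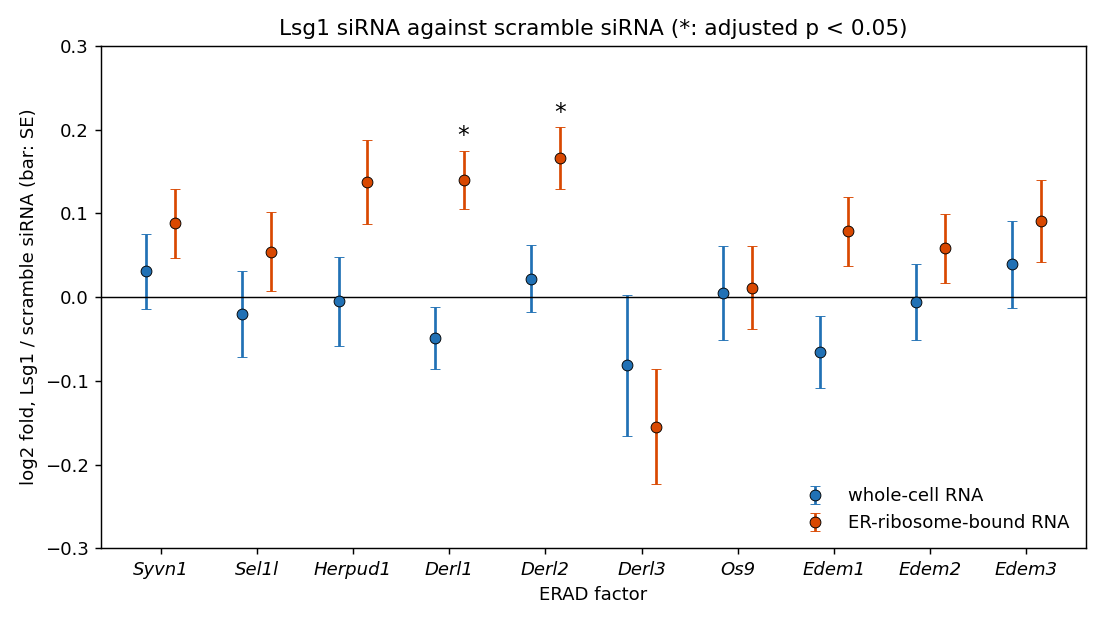
Log2 fold of Lsg1 over scramble siRNA for each ERAD factor in whole-cell and ER-bound RNA; bars are the SE of the edgeR fit, and stars mark an adjusted p under 0.05. Only Derl1 (0.14) and Derl2 (0.17) in ER-bound RNA are starred.

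Whether the ER-bound excess itself changed with the siRNA was tested by the interaction, and no member passed, where 0.0226% of all genes did, 0.0113% higher and 0.0113% lower. DESeq2 and limma-voom also called 0 members, and 3 had an unadjusted p under 0.05, as did 1219 of all genes (6.89%). Derl1 had the largest value, with a log2 difference of 0.19 (SE 0.05, unadjusted p = 0.00165, adjusted p = 0.426). Derl2, Edem1 and Herpud1 stood at 0.14 each, with adjusted p from 0.632 to 0.765. No list had a gene called by edgeR, DESeq2 or limma-voom, and at an unadjusted p under 0.05 there were 3 of 18 ligases and partners, 7 of 17 other ER-made factors, 4 of 27 cytosolic factors and 2 of 23 unfolded protein response genes, beside the same 6.89% of all genes. The whole-cell and ER-bound siRNA comparisons are therefore not shown to differ in any of the 10 members.

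Genes with the pattern over the 12 libraries most like that of Syvn1, by the smallest root mean square difference of centred log2 CPM among 10632 genes of at least 5 CPM, were Fzd7 (0.040), Xkr5 (0.044) and Pomt2 (0.044). For Herpud1 they were Tomm22 (0.029), Emc6 (0.033) and Lamtor1 (0.040). Among the other members, Edem3 was the nearest to both Syvn1 (0.081, rank 290) and Herpud1 (0.096, rank 592).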

How the data were processed

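Poly-A RNA of 12 libraries in 4 groups of 3 was analysed from the authors' deposited counts of reads per gene, 1 table per library. Per the labels' protocols, libraries were made with a directional kit and 9 PCR cycles and sequenced in pairs. Per the submitters' processing notes, STAR 2.7.9a, HTSeq 0.11.2, DESeq2 and the build GRCm39 were used; the sources used here give neither annotation release nor strand setting. The 5 summary lines of each table were kept out: reads outside any feature made up 2.65% to 5.26%, ambiguous reads 0.970% to 1.16% and multiply aligned reads 6.09% to 8.23%.

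Names, positions, transcript lengths and coding sequences came from GENCODE M21 (GRCm38), joined on unversioned gene IDs (52083, or 93.99%, had a match, with 99.51% of reads). These coordinates belong to GRCm38, not to the authors' build. Counts were TMM-scaled, filtered with filterByExpr and tested with edgeR 4.0.16 in R 4.3.3 (1 mean per group, all 12 libraries, 8 residual degrees of freedom, 17702 genes, Benjamini-Hochberg threshold 0.05); the SE is the log2 fold divided by the square root of F. The scripts were tested on simulated data. Depth was 38092178 to 56522114 assigned reads, and CPM are given as mean ± SD of 3 replicates or per library.

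Hydropathy was planned on RefSeq proteins and was computed instead from translated GENCODE main transcripts. Biopython 1.88 was used to align the derlin and EDEM proteins. Hm13, of the list of other ER-made factors, was not matched and is left out. Members and lists were chosen with earlier results of these data known. Besides the 10 members and Lsg1, the rule named up to 3 genes per list and direction with the smallest p in the scramble comparison of fractions, up to 2 per list in the others, and the 3 nearest patterns to Syvn1 and Herpud1; March6, Rnf145, Vcp, Erlec1, Faf2 and single cell type markers were named after their values were seen. Fractions are paired through their lysates. Same-numbered ER-bound libraries deviated together (r = 0.376, 0.125 and 0.322). Same-numbered whole-cell libraries did not in every pair (0.277, -0.01 and 0.312). Whether same-numbered libraries of different siRNAs share more than a number is not given in the sources used here. The main fit used neither lysate nor replicate number, which entered only in the replicate blocks. Results were recomputed with library totals, DESeq2 size factors, a stricter or no low-count filter, DESeq2 1.42.0, limma-voom (limma 3.58.1), only the groups compared, replicate blocks, an offset for GC content and length, each library left out in turn, and the 2 libraries that stand apart left out together. Figures were drawn with matplotlib 3.10.9.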

Additional observations from a re-analysis of the deposited data

How the results depend on the processing

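In scramble cells 10 of 10 members were called higher in ER-bound RNA, except for 9 with the GC and length offset, with or without the block, and 9 without ER-bound scramble replicate 2 or whole-cell scramble replicate 3. With the replicate block no member changed its call in any comparison. With the block and the GC and length offset together, Herpud1 in scramble cells was 0.0588 (adjusted p = 0.293). With Lsg1 siRNA all 10 stayed higher throughout. The GC and length offset also moved Edem1 from 0.29 to 0.54, Edem3 from 0.45 to 0.73, Derl3 from 0.90 to 0.60 and Herpud1 from 0.45 to 0.19 there. Edem1 in scramble cells was 0.23 with library totals. With the offset 43.9% of all called genes were higher in scramble cells and 43.2% with Lsg1 siRNA, against 50.7% in each main fit. The cause of these moves was not tested.

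On ER-labelled ribosomes the count of 2 members was 0 with no low-count filter, with only the groups compared, and without the 2 libraries that stand apart, and 0 to 3 with 1 library left out. Under no filter Derl1 was 0.12 (adjusted p = 0.152) and Derl2 0.15 (0.0879); without the 2 libraries they were 0.11 (0.165) and 0.14 (0.105). In the lists there, the 3 ER-made factors became 6 with the block and 6 with block and offset, and 1 to 3 with 1 library left out; the 0 ligases became 1 with library totals, 2 with the stricter filter, 2 with limma-voom, 3 with the block and 3 with block and offset, and 0 to 1 with 1 library left out. The 1 cytosolic gene called higher became 2 with DESeq2, 2 with the offset, 3 with block and offset and 0 without the 2 libraries (0 to 1 with 1 left out); the 1 called lower became 2 with the offset and 3 with block and offset. In the interaction 1 ER-made factor was called with block and offset. The stretch count was 5 at a threshold of 1.9.

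The sign of values near 0 was not fixed. For Os9, Lsg1 over scramble in ER-bound RNA was -0.0077 with no filter, -0.0006 with the groups compared, -0.0136 with the offset, -0.0135 with block and offset and -0.0065 without the 2 libraries; its interaction was -0.0113, -0.0066 (offset), -0.0046 (block and offset) and -0.0584 (2 libraries); in whole-cell RNA it was -0.0069 and -0.0089 with the offset and block and offset. With 1 library left out, whole-cell values ran from -0.0163 to 0.0382 (Derl2), -0.0316 to 0.0142 (Edem2), -0.0147 to 0.0764 (Edem3), -0.0539 to 0.041 (Herpud1), -0.047 to 0.0476 (Os9) and -0.0734 to 0.0319 (Sel1l), interactions from -0.0124 to 0.0932 (Edem3) and -0.0461 to 0.0481 (Os9), and Os9 in ER-bound RNA from -0.0295 to 0.022.

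Counts of all genes moved more than 1.5 times in 2 comparisons besides the values in the report: the interaction's 4 became 59 with no filter, 16 with DESeq2, 13 with the block, 10 with the block by lysate and 34 with block and offset, and the 0 of whole-cell RNA became 26 with no filter and 8 with block and offset. The 710 on ER-labelled ribosomes were 1514 with block and offset and 290 to 854 with 1 library left out.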
